A study of Homo sapiens with 6 samples.

Results

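Peptide loading of MHC class I molecules was followed through 10 genes (TAP1, TAP2, TAPBP, TAPBPL, ERAP1, ERAP2, CALR, CANX, PDIA3 and NLRC5), chosen by symbol from a table of 60662 genes, where each had 1 row. The cells were DU-145, an established human prostate cancer line, stably carrying a tetracycline-inducible hairpin RNA against MUC1, which encodes a transmembrane mucin. DOX-negative cultures (3 libraries) received vehicle and DOX-positive cultures (3 libraries) received doxycycline (DOX), both for 7 days, and cells of both groups were exposed to IFN-gamma at 10 ng/ml for 24 hours. The labels do not say whether the line is 1 clone. Neither cells without IFN-gamma nor control-hairpin cells given DOX were analysed here, so DOX itself and the hairpin cannot be told apart, and the response to IFN-gamma itself was not measured.

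MHC class I molecules carry peptides from inside the cell to its surface, where CD8 T cells read them. The peptides are cut by the proteasome, pumped into the endoplasmic reticulum (ER) by the transporter TAP1/TAP2, trimmed there by the aminopeptidases ERAP1 and ERAP2, and fitted into the class I groove by a complex of tapasin (TAPBP), calreticulin (CALR) and the disulfide isomerase PDIA3, after calnexin (CANX) has held the newly made heavy chain. TAPBPL is a tapasin relative that edits peptides outside that complex, and NLRC5 is the transactivator that acts at class I promoters. In most cells interferon-gamma (IFN-gamma) induces much of this machinery.

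The promoters of the genes differ in ways that are useful to have at hand beside their values. RefSeq promoter sequences (GRCh38.p14, 250 bases before to 50 after each start) matched 8 of the 10 genes, all but PDIA3 and NLRC5. The core of the interferon-stimulated response element, the site bound by IRF factors, was searched on both strands as GAAA, any 2 bases, then GAAA, and 3.57% of all 35116 promoter windows hold it. Counted by gene, over any of its windows, it was found in 5 of the 8, the transporter subunits, tapasin and both aminopeptidases. It was found in none of TAPBPL, CALR and CANX. Counted the same way, 521 of the 12753 genes tested with a promoter entry hold it. The stretches of 30 bases that hold it are shown 5′ to 3′ on the strand of the gene, to show the letters these promoters share. The motif was chosen after the values were seen, so how it falls among the 8 genes is a description. Capitals mark the match, or 2 overlapping matches for TAP1 and TAPBP.
TAP1: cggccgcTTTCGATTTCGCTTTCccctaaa
TAP2: ctggggaagcGAAAGCGAAAgctgcccgag
TAPBP: tttggagGAAAGTGAAAGTGAAAggaggaa
ERAP1: cgggctccacTTTCACTTTCggtcctgggg
ERAP2: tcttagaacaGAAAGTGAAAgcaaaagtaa
The TAP1 stretch lies at chr6:32853816-32853845 on the minus strand and its match starts 134 bases before the gene's start. The TAP2 stretch (chr6:32838778-32838807, minus) has its match from 58 bases before the start, and the TAPBP stretch (chr6:33314076-33314105, minus) from 20 bases before it. The ERAP1 match (chr5:96807924-96807953, minus) begins 3 bases into the transcript. The ERAP2 stretch (chr5:96876460-96876489, plus) holds its match 30 bases before the second of the gene's 2 listed starts. ERAP1 also has 2 listed starts, and the other window of each aminopeptidase gene and of TAP1 has no match.

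CALR and CANX instead share an ER stress element, the site through which the unfolded protein response acts on ER chaperone genes. It was searched as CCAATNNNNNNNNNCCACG on both strands, which only 27 of 35116 promoter windows (0.0769%) hold. It contains a CCAAT box, itself found in 34.6% of windows. Its outer boxes are in capitals below, and in CALR the element is on the opposite strand and so reads ATTGG and CGTGG.
CALR: ccacgCGTGGtcgaccatcATTGGtcggtg
CANX: cccggCCAATcttcacactCCACGaagaat
The CALR stretch lies at chr19:12938379-12938408 and the CANX stretch at chr5:179698773-179698802, both on the plus strand. The gamma-activated sequence TTCNNNGAA stands in 7.66% of windows, and among the 8 genes only in the window of the second listed TAP1 start. A match describes these letters and is not evidence of binding. The ER stress element occurs in 16 of the genes tested, of which 6 were called lower and 6 higher (37.5% each). Of all 12753 genes tested with a promoter entry, 32.8% were called lower and 37.1% higher, which is near those shares.

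The libraries held 87739734 to 150921436 reads, and the 10 genes were counted at 1633 (TAPBPL) to 191543 reads (CANX) in a library. A count of 3 reads, what a count of 0 allows, corresponded to 0.0204 to 0.0328 CPM (counts scaled to a common library size), a limit for counting error only. The hairpin's target, MUC1, stood at 20.4, 21.8 and 22.2 CPM without DOX and at 1.53, 1.31 and 1.32 CPM with it, as the labels would have it. Of the markers of the line's epithelial origin (KRT8, KRT18, KRT19, EPCAM and CDH1) all 5 were present, and they summed to 813 to 864 CPM without DOX and 2262 to 2350 CPM with it, so epithelial genes moved with the group and their part in what follows was not tested. KLK3, KLK2 and TMPRSS2, markers of the prostate androgen axis, stayed under 1 CPM in each library. The 8 leukocyte markers summed to 1.38 to 1.48 CPM without DOX and 0.645 to 0.777 CPM with it, with CD3E and MS4A1 at 0, and 3 endothelial markers to at most 0.436 CPM. The 5 fibroblast markers summed to 6.18 to 7.37 CPM and 4.64 to 4.98 CPM, nearly all of it COL1A1, with LUM at 0.

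All 10 genes passed the filter on low counts. In DOX-positive cells 6 of them fell, TAP1, TAP2, TAPBP, ERAP1, ERAP2 and NLRC5, by 13.8% to 31.5%, and 2 rose, CALR by 20.8% and PDIA3 by 5.78%. CANX and TAPBPL did not pass the test. Calls are an edgeR quasi-likelihood adjusted p under 0.05 over all 24695 genes tested, and fold changes are DOX-positive over DOX-negative. This comparison called 56.5% of all genes tested, 28.9% lower and 27.6% higher, so calls as such are common in it. The median log2 fold change was -0.25 over the 10 genes and -0.04 over all genes tested. Without overlap between the groups, 7 of the 10 were lower and 2 higher, against 32.6% and 29.8% of all genes tested (62.4% in either direction). In bulk RNA, fewer cells that express a gene and less RNA of it per cell cannot be told apart. Small changes depend on how libraries are scaled. With library size alone, 57.8% of all genes were called, 38.8% lower and 19.0% higher, and the median of all genes moved to -0.19. DESeq2 size factors in edgeR called 56.2% (27.1% lower, 29.1% higher), upper-quartile scaling 56.6% (32.6% lower, 24.0% higher) and the replicate number as a block 54.7% (27.7% lower, 27.0% higher). The DESeq2 Wald test called 53.2% (25.2% lower, 28.0% higher) and limma-voom 57.1% (29.3% lower, 27.8% higher). TAP1, TAP2, TAPBP, ERAP1, ERAP2, NLRC5 and CALR were called in the same direction by each of these.

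**Figure D1:**
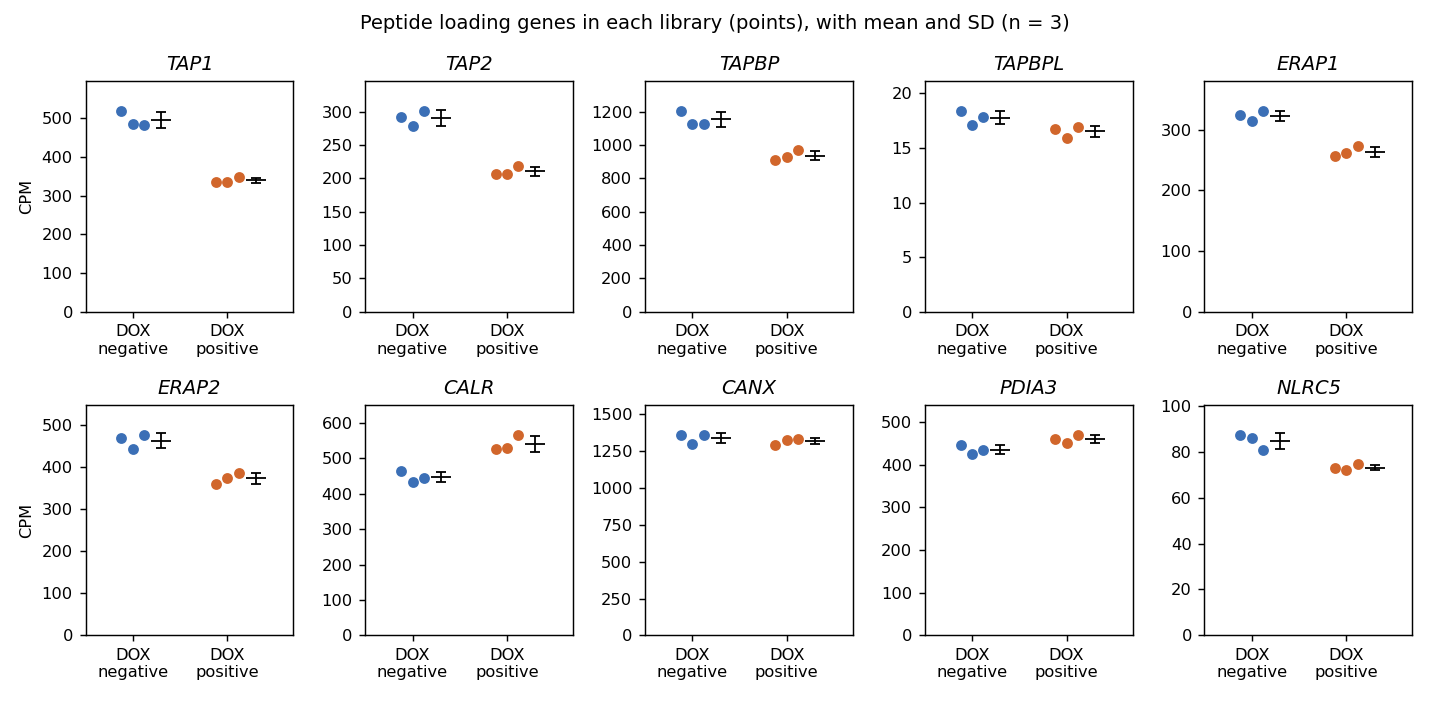
Level of each of the 10 genes (CPM, axis from 0) in the 3 DOX-negative (blue) and 3 DOX-positive (orange) libraries, 1 point per library, with the mean and SD of each group in black. Relative to their level, TAP1 and TAP2 fell most, by 31.5% and 27.6%, CALR rose most, by 20.8%, and the CANX groups overlap.

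The transporter genes had the largest falls of the 10. TAP1, one subunit of the ATP-driven pump (ENSG00000168394.11, chromosome 6, 32845209 to 32853978, minus strand, GRCh38), read 518, 484 and 481 CPM in DOX-negative replicates 1, 2 and 3 and 334, 335 and 348 CPM in DOX-positive replicates 1, 2 and 3. The highest DOX-positive library was far below the lowest DOX-negative one, and the log2 fold change was -0.55 (SE 0.03, edgeR adjusted p = 6.28e-10). TAP2, the other subunit (ENSG00000204267.15, chromosome 6, 32821833 to 32838780, minus strand), read 292, 278 and 301 CPM without DOX and 207, 206 and 218 CPM with it. Its groups were as clearly apart, with a level 27.6% lower in DOX-positive cells (SE 0.04 on the log2 scale, edgeR adjusted p = 1.24e-08).

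Of the tapasin genes, 1 fell and the other did not pass the test. Tapasin, TAPBP (ENSG00000231925.11, chromosome 6, 33299694 to 33314387, minus strand), which bridges TAP and the empty class I molecule, read 1205, 1129 and 1129.6 CPM without DOX and 912, 930.2 and 968 CPM with it. Its log2 fold change was -0.30 (SE 0.03, edgeR adjusted p = 2.76e-07), and no library of one group reached the other. TAPBPL (ENSG00000139192.12, chromosome 12, 6451690 to 6466517, plus strand) was far lower, at 18.4, 17.1 and 17.8 CPM without DOX and 16.7, 16.0 and 16.9 CPM with it. The groups just failed to overlap, but a level 7.02% lower did not pass the test (edgeR adjusted p = 0.0766). TAPBPL passed, as lower, with upper-quartile scaling (log2 fold change -0.16), with library size alone (-0.25), with a stricter filter of 1 CPM in 3 libraries (-0.14) and without DOX-negative replicate 2 (-0.14).

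The trimming enzymes fell together. ERAP1 (ENSG00000164307.13, chromosome 5, 96760810 to 96808100, minus strand) read 325, 314 and 331 CPM without DOX and 256, 262 and 273 CPM with it. ERAP2 (ENSG00000164308.17, chromosome 5, 96875939 to 96919716, plus strand), the neighbouring gene on the opposite strand, read 469.6, 443 and 477 CPM without DOX and 360.2, 375 and 387 CPM with it. Each DOX-positive library lay below each DOX-negative one for both enzymes. The log2 fold changes were nearly equal, -0.29 (SE 0.03, edgeR adjusted p = 1.43e-06) for ERAP1 and -0.31 (SE 0.04, edgeR adjusted p = 1.27e-06) for ERAP2.

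The general ER chaperones of the pathway, which serve many glycoproteins besides class I, had 2 that rose and 1 that did not pass. CALR (ENSG00000179218.13, chromosome 19, 12938578 to 12944489, plus strand), the calcium-binding lectin chaperone of the loading complex, read 464, 434 and 443 CPM without DOX and 527, 528 and 566 CPM with it. Each DOX-positive library was above the DOX-negative ones (log2 fold change 0.27, SE 0.03, edgeR adjusted p = 4.27e-06). CANX (ENSG00000127022.15, chromosome 5, 179678628 to 179730925, plus strand), the membrane-bound lectin chaperone, read 1357, 1300.1 and 1361 CPM without DOX and 1294, 1326 and 1336 CPM with it. These ranges overlap, with a log2 fold change of -0.02, an interval of -0.07 to 0.03 (1.96 SE either side) and an edgeR adjusted p of 0.469. With library size alone, upper-quartile scaling or the stricter filter CANX was called lower, by 0.17, 0.08 and 0.06 on the log2 scale, and without DOX-negative replicate 2 by 0.05.

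PDIA3 (ENSG00000167004.13, chromosome 15, 43746392 to 43773279, plus strand), the isomerase joined to tapasin by a disulfide bond, read 446, 426 and 434 CPM without DOX and 461, 451 and 469.9 CPM with it. The groups nearly touched, and the log2 fold change of 0.08 (SE 0.03) barely passed (edgeR adjusted p = 0.0311). The call was lost with upper-quartile scaling (adjusted p = 0.488) and the stricter filter (0.134), and without DOX-negative replicate 2 (0.0540) or 3 (0.0818) and DOX-positive replicate 1 (0.0525) or 3 (0.0895). With library size alone PDIA3 was called lower, by 0.06 on the log2 scale (adjusted p = 0.0463). Its processed pseudogene PDIA3P1, which is close enough to share reads, read 17.2 CPM on average without DOX and 16.2 CPM with it, and PDIA3 is uncertain where such reads could be split between them.

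NLRC5 (ENSG00000140853.15, chromosome 16, 56989485 to 57083531, plus strand) read 87.3, 86.2 and 80.9 CPM without DOX and 72.8, 72.0 and 74.5 CPM with it. The groups did not overlap, and the log2 fold change was -0.21 (SE 0.03, edgeR adjusted p = 5.45e-05), a fall of 13.8%. CIITA, its relative that drives MHC class II genes, stood at 79.1 CPM without DOX and 22.2 CPM with it (log2 fold change -1.83).

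**Figure D2:**
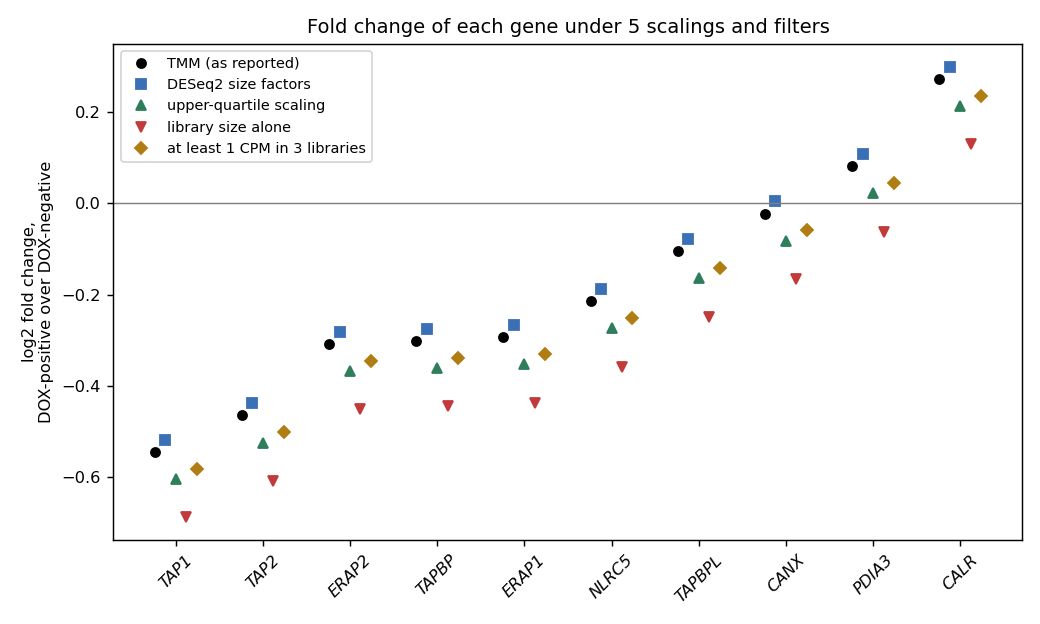
Log2 fold change of each of the 10 genes (DOX-positive over DOX-negative, linear axis) as reported, with 3 other scalings and with a stricter filter on low counts, 1 marker per setting. TAP1, TAP2, TAPBP, ERAP1, ERAP2 and NLRC5 lie below 0 and CALR above 0 at each of these settings, while CANX and PDIA3 cross 0.

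Levels can be compared between genes only per length, here as CPM divided by the deposited gene length in kilobases (RPKM). That length is 1 value per gene and need not be that of the transcripts these cells express. The order of genes is therefore approximate, while the change of a gene between the groups does not depend on its length. TAPBP stood highest in DOX-negative cells, at 228 ± 8.58 RPKM (SD, n = 3), followed by CANX (193 ± 4.88), CALR (165 ± 5.58), PDIA3 (103 ± 2.38), TAP1 (103 ± 4.23), ERAP2 (66.6 ± 2.62), TAP2 (45.5 ± 1.77) and ERAP1 (40.7 ± 1.08). NLRC5 (6.85 ± 0.278) and TAPBPL (5.58 ± 0.197) were last, 40.95-fold between the ends. Neighbours in this order were apart in their libraries, other than PDIA3 and TAP1, which overlapped. In DOX-positive cells CALR ranked first at 199 ± 8.26 RPKM, ahead of CANX at 190 ± 3.15 RPKM and TAPBP at 185 ± 5.68 RPKM. CANX and TAPBP then overlapped, as did ERAP1 at 33.2 ± 1.05 RPKM and TAP2 at 33.0 ± 1.06 RPKM, while TAP1 had dropped clear of PDIA3 to 70.5 ± 1.56 RPKM.

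**Figure D3:**
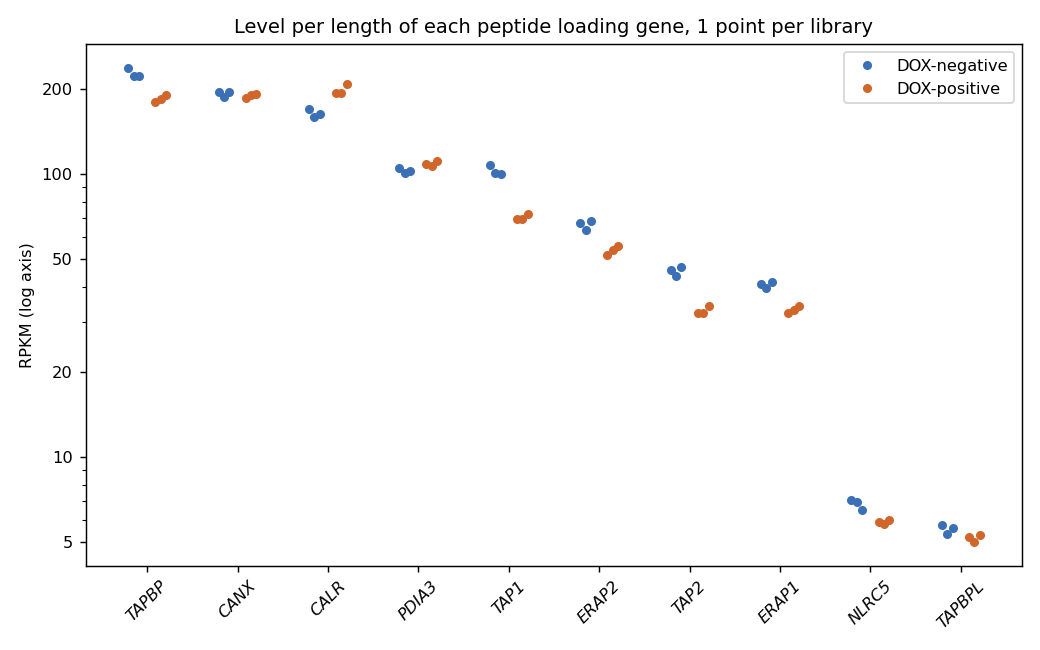
RPKM on a log axis for each gene in each DOX-negative (blue) and DOX-positive (orange) library, ordered by the DOX-negative mean. The first 3 genes change their order between the groups, and NLRC5 and TAPBPL stand apart at or below 7.05 RPKM.

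Within a library, the ratio of 2 genes does not depend on how libraries are scaled. The level of a ratio rests on the deposited lengths and is approximate, while its difference between the groups does not depend on them. Of 8 ratios between partners, the groups were apart in 6, each at the smallest p that 3 against 3 libraries allow (exact two-sided permutation test, p = 0.1, adjusted over 8 ratios 0.133), so none can pass 0.05. TAP1 to TAP2 was 2.26 without DOX and 2.14 with it per length, and its groups overlapped (log2 ratios 1.23, 1.21 and 1.09 against 1.10, 1.11 and 1.08). ERAP2 to ERAP1 overlapped too, at 1.64 and 1.62. The log2 differences were -0.08 for TAP1 to TAP2, where the SD was 0.08 without DOX and 0.02 with it, and -0.015 for ERAP2 to ERAP1 (exact two-sided permutation test, p = 0.3 for both).

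In the other 6 ratios the groups did not overlap. CALR to CANX was 0.855 without DOX and 1.05 with it, with log2 ratios of -0.19, -0.23 and -0.26 without DOX and 0.06, 0.03 and 0.12 with it, and PDIA3 to CANX was higher with DOX by 0.10 on the log2 scale. TAPBPL to TAPBP was higher with DOX by 0.20 on that scale. TAP1 shares the stretch before its start with PSMB9, an immunoproteasome subunit whose start lies 488 bases away on the opposite strand. TAP1 to PSMB9 was 2.10 without DOX and 1.64 with it, a log2 difference of -0.36, and PSMB9 itself, at 164 CPM without DOX and 144 CPM with it, fell by 0.19 (edgeR adjusted p = 9.29e-05). TAP1 to B2M, the light chain of class I, was 0.287 without DOX and 0.221 with it. The log2 ratio of NLRC5 to CIITA was 0.84 without DOX and 2.46 with it.

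**Figure D4:**
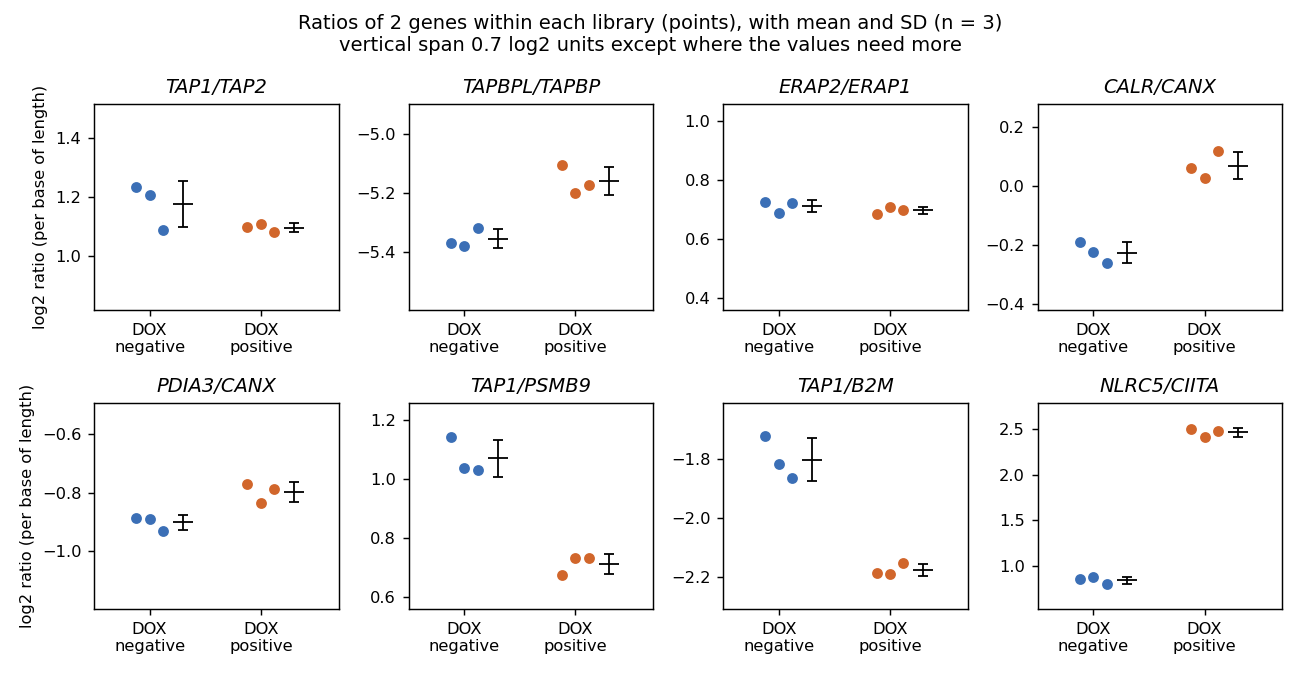
Log2 ratio of 2 genes per length within each library (points; blue DOX-negative, orange DOX-positive), with the mean and SD of each group. The axes span 0.7 log2 units, other than NLRC5/CIITA, and the TAP1/TAP2 and ERAP2/ERAP1 groups overlap while the other 6 do not.

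The rest of the class I pathway is given by lists chosen with earlier results of these data known. Over all genes tested, 28.9% were called lower and 27.6% higher, and the counts below stand beside that share. Of 7 class I chains 6 fell and 0 rose, and HLA-G, which was under 1 CPM, did not pass. Their median log2 fold change was -0.27, against -0.04 for all genes tested. HLA-F fell by 0.38 and HLA-B by 0.32 on the log2 scale, and B2M by 0.17 (edgeR adjusted p from 1.10e-07 to 2.75e-06). HLA reads can be split among near-identical copies. Of 9 proteasome genes that supply peptides, 6 fell and 3 rose. PSMB10 and PSMB8, which replace constitutive subunits in the immunoproteasome, dropped by 0.73 and 0.56. Of the constitutive subunits, PSMB7 and PSMB6 rose by 0.47 and 0.33 and PSMB5, the one PSMB8 replaces, fell by 1.55, from 38.5 to 13.1 CPM. PSME3, which caps nuclear proteasomes, rose by 0.21.

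Among these chains and proteasome genes, the interferon response element core stood in 6 of 9 that had a promoter entry, B2M, HLA-F, PSMB8, PSMB10, PSME1 and PSME2. The 3 entries without it, HLA-B, HLA-C and PSMB9, belong to genes that fell too, by 0.32, 0.27 and 0.19 on the log2 scale. The PSMB9 window (chr6:32853942-32854241) does not reach the TAP1 stretch, which lies between the starts of TAP1 and PSMB9. Absence from the window is therefore not absence from the stretch these genes share. The PSMB10 stretch (chr16:67936852-67936881, minus strand) carries the same 10 letters as that of TAP2, and the B2M stretch (chr15:44711366-44711395, plus strand) holds 2 overlapping matches.
PSMB10: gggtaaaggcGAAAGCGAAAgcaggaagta
B2M: actctaaGAAAAGGAAACTGAAAacgggaa
Over the 12753 genes tested that had a promoter entry, 32.8% were called lower, 37.1% higher and the median log2 fold change was 0.01. Of the 521 with the core, 43.8% were called lower, 26.7% higher and the median was -0.11.

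Of 7 other peptidases that trim or destroy antigenic peptides, 1 fell and 4 rose. For this list and those that follow in this paragraph, the share over all genes tested was 28.9% lower and 27.6% higher. LAP3, an IFN-gamma-inducible leucine aminopeptidase of the cytosol, fell by 0.98 on the log2 scale, from 407 to 206 CPM. NPEPPS, the puromycin-sensitive aminopeptidase, rose by 0.80, the endopeptidase NRDC by 0.61 and LNPEP, which trims peptides in endosomes for cross-presentation, by 0.27. ERAP1 and ERAP2 thus fell beside LAP3 while these 3 rose. Of 8 genes from the IFN-gamma receptor to IRF1, 6 fell and 2 rose. IFNGR1, the ligand-binding chain, fell by 1.21 and JAK2 by 0.65, while JAK1 rose by 0.64 and IFNGR2 by 0.27. Of 9 genes of the promoter complex through which NLRC5 and CIITA act, CIITA included, 5 fell and 2 rose. ATF1 fell by 0.53, and CREB1 and the NF-Y subunit NFYC rose by 0.55 and 0.28.

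**Figure D5:**
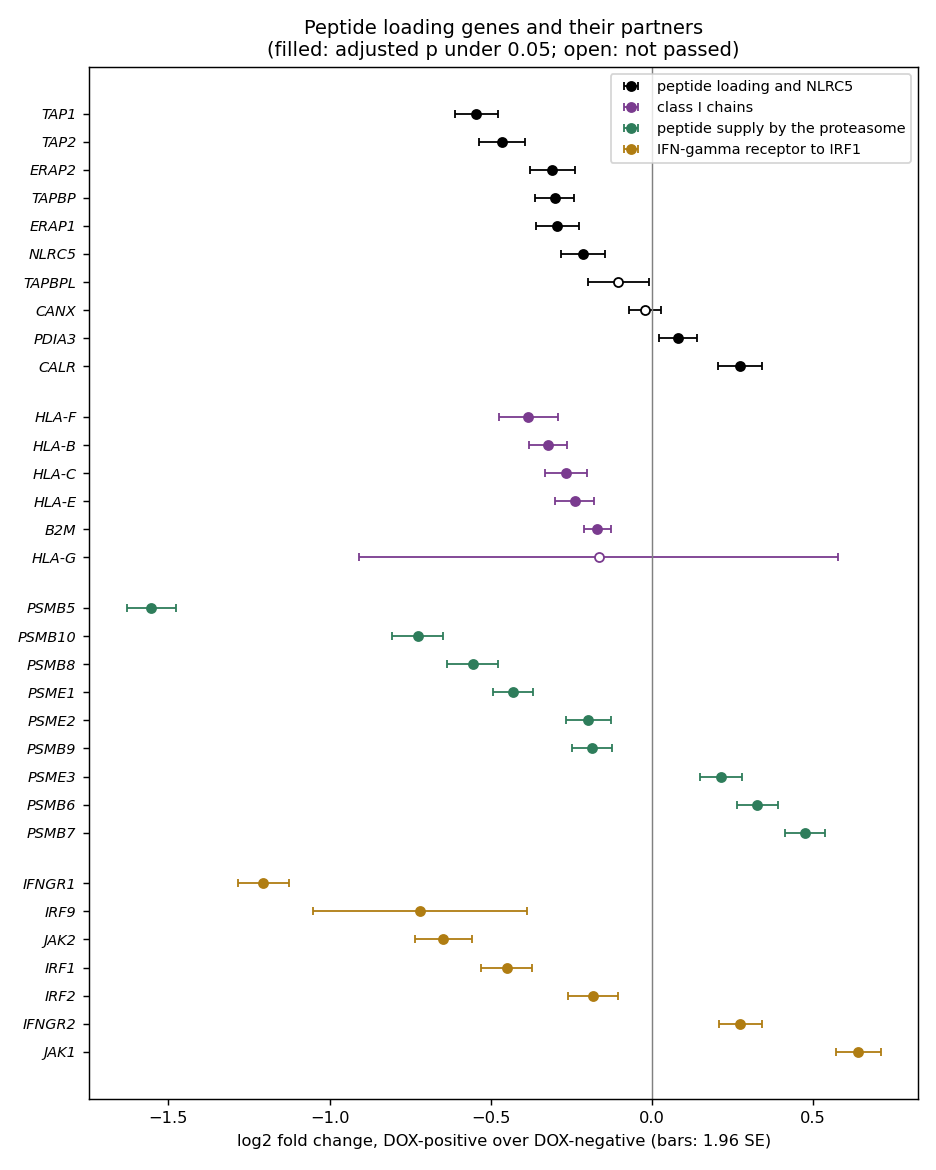
Log2 fold change (DOX-positive over DOX-negative, bars 1.96 SE either side) of the 10 genes in black and of reported members of 3 lists of their partners in colour, filled where the edgeR adjusted p was under 0.05. TAP1 lies lowest of the 10 at -0.55 and CALR highest at 0.27, within a spread among partners that runs from PSMB5 at -1.55 to JAK1 at 0.64.

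CALR, CANX and PDIA3 also belong to the general folding machinery of the ER. Of 17 ER chaperones and oxidoreductases, 9 rose and 2 fell (median log2 fold change 0.18), while scaling by library size alone left 7 in each direction. ERO1A, which reoxidises protein disulfide isomerases, rose by 0.91 and ERP44, which retains ERO1A in the early secretory pathway, by 0.43. HYOU1, a large ER chaperone, fell by 0.38 and ERO1B by 0.61. Of 12 genes of the glycoprotein folding cycle, which calnexin and calreticulin serve, 6 rose and 4 fell, or 3 and 6 with library size alone. Beside both lists, 27.6% of all genes tested were called higher and 28.9% lower, or 19.0% and 38.8% with library size alone. UGGT1 and UGGT2, the enzymes that return unfolded glycoproteins to these lectins, fell by 0.26 and 0.43, the cargo receptor LMAN1 by 0.27 and the glucosidase MOGS by 0.13. The groups overlapped for MOGS, and MOGS did not pass under scaling by DESeq2 size factors (edgeR adjusted p = 0.0512), in the DESeq2 Wald test (0.0605), or when either DOX-negative replicate 1 (0.132) or DOX-positive replicate 2 (0.0984) was left out. EDEM2, which marks misfolded glycoproteins for disposal, rose by 0.72 and BCAP31, an export receptor that class I molecules use, by 0.33.

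Likeness to TAP1, NLRC5, ERAP1 and CALR was measured as the root mean square difference between log2 CPM profiles over the 6 libraries, each centred on its DOX-negative mean, among 15008 genes of at least 1 CPM. The nearest to TAP1 were ZNF141 (0.0210), the immunoproteasome gene PSMB8 (0.0228) and TTYH3 (0.0228). Nearest to NLRC5 was RFXANK (0.0139), a subunit of the RFX complex, and the ribosomal protein gene RPL13A (0.0168) was also among its 3 nearest. ERAP1 stood nearest to QKI (0.0110), MORF4L2 (0.0115) and ZNF207 (0.0123), and CALR to CAPNS1 (0.0132), GNB2 (0.0143) and CDCA4 (0.0159). With 2 groups, any gene of like fold change and like spread scores near.

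In the GENCODE 29 annotation 18 genes overlap the 10, and whether reads were assigned by strand is not given in the sources used here. PSMB9 overlaps TAP1 on the other strand without sharing exon bases, and PSMB8-AS1, on the other strand, shares 9.49% of TAP1 exon bases at 12.7 CPM without DOX and 9.53 CPM with it. CAST, which rose by 0.79 on the log2 scale from 257 to 442 CPM, shares 3.76% of ERAP1 exon bases on the opposite strand, and VAMP1 (9.68 CPM on average without DOX) shares 10.6% of those of TAPBPL. TAPBPL and ERAP1 are therefore uncertain where reads of these partners could be counted to them. The other 14 read at most 2.44 CPM in a library: AL669918.1, CD27, AC008906.1, AC008906.2, AC009126.1, MIR6515, AC092069.1, CBY3, HMGB3P22, CATSPER2P1, ELL3, AC018512.1, AC023825.1 and AC023825.2. Of them, AL669918.1 lies on the same strand as TAP2 and shares 32.3% of TAP2 exon bases. The level of TAP2, and its ratio to TAP1, is uncertain where reads in shared exons were not counted.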

How the data were processed

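Polyadenylated, stranded libraries (TruSeq Stranded mRNA, per the labels' protocols) of 6 DU-145 cultures were counted by the authors. The authors deposited whole-number read counts per gene, not normalized, with a gene length in bases. Tools named in the submitters' processing notes are DESeq2 1.24.0, CASAVA 1.8.2 and STAR 2.7.9a, and the build named there is GRCh38.p7. The counter, the annotation and how strand was set: not given in the sources used here.

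Groups and replicate numbers came from the sample titles. The labels name triplicate cultures and nothing further, so the spread behind each p-value is that of these cultures, which may be technical. Chi-square per degree of freedom between libraries of a group lay between 6.40 and 20.8, so none agreed within sampling noise. Counts were tested with edgeR 4.0.16 in R 4.3.3 (quasi-likelihood, group as the only term, TMM scaling, default filterByExpr with a minimum count of 10 and total of 15, Benjamini-Hochberg over 24695 genes, threshold 0.05). SE is the absolute log2 fold change over the square root of F. CPM use TMM-scaled library sizes, and RPKM divide them by the deposited length. Ratios used counts plus 0.5 per length. The script was tested on simulated counts.

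As alternatives, libraries were scaled by upper quartile, by DESeq2 size factors or by library size alone. Genes were left unfiltered or needed 1 CPM in 3 libraries. Calls were also made with DESeq2 1.42.0, with limma-voom (limma 3.58.1), with the replicate number as a block and without each library in turn, and ratios with a prior count of 2. The members and lists were chosen with earlier results of these data known. Named beside the 10 genes were MUC1, per list up to 4 genes with the smallest p and those called against its majority, the tested near relatives, overlapping genes and the 3 genes nearest to 4 members. HLA-C, HLA-G, PSME1, PSME2 and the marker genes were named from fixed lists. The promoter motifs were chosen after the values were seen. GENCODE 29 gave positions. Some items of the lists are not reported here. Figures used matplotlib 3.10.9.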

Additional observations from a re-analysis of the deposited data

How the results depend on the processing

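TAP1, TAP2, TAPBP, ERAP1, ERAP2, NLRC5 and CALR kept their direction and their call under each of the 14 alternatives run. The count of lower genes among the 10 lay between 6 and 9. It was 6 as reported, where 28.9% of all genes tested were called lower. With upper-quartile scaling it was 8 (32.6%) and with library size alone 9 (38.8%). The count of higher genes was 2 as reported (27.6% of all genes tested). It was 1 with upper-quartile scaling (24.0%), with library size alone (19.0%) and with the filter of 1 CPM in 3 libraries. When each library was left out in turn it was 1 to 2. The count dropped to 1 because PDIA3 lost its call or, with library size alone, was called lower. The share over all genes is not given for the changed filters or the left-out libraries. The log2 fold change of CANX, which did not pass, changed sign with DESeq2 size factors (0.0043) and the DESeq2 Wald test (0.0044), and ran from -0.0456 to 0.0084 as each library was left out. That of PDIA3 was -0.0623 with library size alone. PDIA2, near 0.1 CPM, was at -0.012 with library size alone and from -0.0649 to 0.5982 as each library was left out. All 8 ratios kept their sign under the 7 alternatives run for them. The cause of these shifts was not tested. Deviations of same-numbered libraries correlated at -0.215, -0.071 and 0.017 over 15009 genes, and DOX-negative replicate 2 correlated better with DOX-positive replicate 1 (0.33). These values show no pairing by replicate number, but with 3 libraries per group they cannot exclude one. With the replicate number as a block, 13503 genes were called in place of 13957, and 6 of the 10 genes were lower and 2 higher, as without it.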

Other observations

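Of 9 near relatives and copies of the 10 genes that were tested, 3 fell and 2 rose, or 5 and 2 with library size alone. Over all genes tested, 28.9% were called lower and 27.6% higher, or 38.8% and 19.0% with library size alone. CLGN, a calnexin relative best known from the testis, fell by 1.03 on the log2 scale, to 19.7 CPM on average (SE 0.04, edgeR adjusted p = 5.57e-13), while CANX did not pass the test. ABCB9, the TAP-like transporter of lysosomes, rose by 0.38 from 6.96 to 9.04 CPM, opposite to TAP1 and TAP2. Among relatives of NLRC5, NLRX1 rose by 0.36, NLRC3 fell by 0.68 to 1.47 CPM, NOD2 fell by 1.43 from under 1 CPM, and NOD1 (-0.06) did not pass. PDIA3P1 (-0.09), PDIA3P2 (0.36) and PDIA2 (0.13) did not pass either, and CALR3 was too low to be tested.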
